A study of Homo sapiens with 6 samples.

Results

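Splicing factor and ribonucleoprotein (RNP) genes were examined for chromatin-bound HDAC1, histone H4 lactylated at lysine 12 (H4K12la) and ENO1 in HepG2 cells, an established line from a human liver carcinoma. Members were the RefSeq protein-coding genes of GRCh38 whose symbols begin SRSF, SF3A, SF3B, HNRNP, SNRP, PRPF or U2AF, or LSM or RBM followed by a digit, 126 of 19866 genes. The RBM genes were the largest subfamily with 39 members, followed by 26 HNRNP, 13 LSM, 12 each of SRSF, SNRP and PRPF, 6 SF3B, and 3 each of SF3A and U2AF. HDAC1 is a histone deacetylase, ENO1 is the glycolytic enzyme enolase 1, and lactylation is the addition of a lactyl group to a lysine. Each target had 2 replicate CUT&Tag libraries, 6 in all; CUT&Tag uses an antibody to tether a transposase, which inserts sequencing adaptors into nearby DNA. All cells were of the same line, and the labels record no treatment or genotype. No control library was analysed here. Separate cultures are not named for the replicates, whose spread may be technical only.

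The spliceosome removes introns from pre-mRNA. It is built from small nuclear RNPs, in which a ring of Sm proteins (SNRP genes) or of LSM proteins holds a small RNA. The SF3A and SF3B complexes belong to the U2 particle that binds the branch site, U2AF reads the end of the intron, and PRPF proteins act largely in the U4, U5 and U6 particles. SR proteins (SRSF genes) and heterogeneous nuclear RNPs (HNRNP genes) bind exons and introns and steer which sites are used, and many RBM proteins do so as well. These genes are used in most dividing cells, often from CpG-rich promoters.

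Each gene was scored for a peak within 1 kb of either annotated end, and called for a target when both replicates had one. HDAC1 was called at 26 of 126 members (20.6%, Wilson 95% interval 14.5 to 28.5), against 8.18% of all protein-coding genes. H4K12la was called at 23 members (18.3%, 12.5 to 25.9), against 10.5% of all genes. ENO1 had no peak at any member in replicate 1, replicate 2 or both, against 0.166%, 0.101% and 0.0654% of all genes (0.201% in either). The members therefore carried HDAC1 at a share further above the background than that of H4K12la, a comparison without a test. Only peak lists were used, so read depth is unknown and a member without a peak may hold signal under the calling threshold.

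The replicate libraries gave the same order of members against all genes. HDAC1 replicate 1 had a peak at 40 members (31.7%, against 14.8% of all genes) and replicate 2 at 32 (25.4%, against 10.1%). H4K12la replicate 1 had a peak at 30 members (23.8%, against 13.5%) and replicate 2 at 42 (33.3%, against 19.5%). The mean share of members was 28.6% ± 4.49 for HDAC1 and 28.6% ± 6.73 for H4K12la (SD, n = 2), so the means of both targets were equal. Over all genes the means were 12.5% ± 3.36 for HDAC1 and 16.5% ± 4.28 for H4K12la. In each of these 4 libraries the share of members exceeded that of all genes by more than the SD between replicates. Peaks seen in 1 replicate alone were common. H4K12la had 7 members in replicate 1 only and 19 in replicate 2 only, and HDAC1 had 14 and 6.

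By the call in both replicates, most called members carried 1 target alone, as did most called genes. The share of members with both targets was near that of all genes. HDAC1 without H4K12la was called at 21 members (16.7%, against 5.01% of all genes), H4K12la without HDAC1 at 18 (14.3%, against 7.28%), and both at 5 (3.97%, against 3.18%). The shared genes made up 19.2% of the HDAC1 members and 21.7% of the H4K12la members. These were near the 18.3% of all members with H4K12la and the 20.6% with HDAC1. Over all genes the shared part was 38.8% of the HDAC1 genes and 30.4% of the H4K12la genes. Those were above the 10.5% of all genes with H4K12la and the 8.18% with HDAC1. So the classes with 1 target alone do not show that the targets avoid each other, which was not tested. Part of the split into classes rests on the replicate rule. Of the 21 members with HDAC1 only, 5 had an H4K12la peak in replicate 2, and of the 18 with H4K12la only, 7 had an HDAC1 peak in replicate 1 and 1 in replicate 2. With no peak of the other target in either replicate, 16 members had HDAC1 only (12.7%, against 2.88% of all genes) and 10 had H4K12la only (7.94%, against 4.74%). Where a peak in either replicate was enough, 23 members carried both targets (18.3%, against 10.2% of all genes). A further 28 members had peaks in 1 replicate of a target only, and 54 had no gene-end peak in any library, so 72 (57.1%) had at least 1 peak, against 29.1% of all genes.

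Promoter sequences are given for 2 members of each class, to show the DNA just upstream of the starts at which the peaks lay. Each is the 250 bases before the RefSeq start (GRCh38.p14, the files' build), written 5′ to 3′ on the gene's strand. Members were taken in the order of their lower fold enrichment among those whose stretch is in the table and overlaps no other annotated gene, so they are not always the strongest of their class. The stretches need not hold the peak summits: of those at SF3B6 2 of 4 lay inside, at HNRNPC 1 of 4, at HNRNPD and HNRNPA2B1 1 of 2 each, and at RBM45 and SNRPB2 0 of 2 each. Capitals mark matches, on either strand, to the motif of ETS factors, CCGGAAG, the widespread CCAAT box, the GC box of Sp1-like factors, GGGCGG, or the core motif of NRF1, GCGCATGC. They also mark the motif of YY1, spelled AAGATGG, the E-box of basic helix-loop-helix factors, CACGTG, the cyclic AMP response element (CRE), written TGACGTCA, and the TATA box in the form TATAAA. HNRNPD (chr4:82373992-82374241, minus strand) and HNRNPA2B1 (chr7:26200747-26200996, minus strand) carried HDAC1 only. SF3B6 (chr2:24076327-24076576, minus strand) and HNRNPC (chr14:21269443-21269692, minus strand) carried both targets. RBM45 (chr2:178112187-178112436, plus strand) and SNRPB2 (chr20:16729776-16730025, plus strand) carried H4K12la only.
HNRNPD: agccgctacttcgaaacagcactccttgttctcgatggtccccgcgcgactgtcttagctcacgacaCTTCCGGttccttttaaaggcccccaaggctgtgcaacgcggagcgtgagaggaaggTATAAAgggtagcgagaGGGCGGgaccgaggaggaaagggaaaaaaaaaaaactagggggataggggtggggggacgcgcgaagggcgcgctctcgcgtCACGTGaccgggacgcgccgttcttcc
HNRNPA2B1: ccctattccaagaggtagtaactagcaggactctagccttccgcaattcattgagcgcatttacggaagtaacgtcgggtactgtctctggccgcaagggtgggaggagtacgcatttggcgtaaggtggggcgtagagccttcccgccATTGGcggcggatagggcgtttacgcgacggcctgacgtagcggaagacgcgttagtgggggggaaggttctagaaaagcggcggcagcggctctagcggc
SF3B6: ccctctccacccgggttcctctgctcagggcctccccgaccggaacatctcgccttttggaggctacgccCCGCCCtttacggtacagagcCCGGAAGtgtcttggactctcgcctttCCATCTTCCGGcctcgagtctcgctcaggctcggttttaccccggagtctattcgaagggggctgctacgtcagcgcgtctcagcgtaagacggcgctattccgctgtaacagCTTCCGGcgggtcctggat
HNRNPC: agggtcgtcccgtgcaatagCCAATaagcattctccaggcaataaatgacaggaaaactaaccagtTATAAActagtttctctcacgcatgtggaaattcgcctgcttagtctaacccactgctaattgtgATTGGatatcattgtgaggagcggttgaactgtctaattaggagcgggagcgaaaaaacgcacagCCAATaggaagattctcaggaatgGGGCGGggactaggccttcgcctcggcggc
RBM45: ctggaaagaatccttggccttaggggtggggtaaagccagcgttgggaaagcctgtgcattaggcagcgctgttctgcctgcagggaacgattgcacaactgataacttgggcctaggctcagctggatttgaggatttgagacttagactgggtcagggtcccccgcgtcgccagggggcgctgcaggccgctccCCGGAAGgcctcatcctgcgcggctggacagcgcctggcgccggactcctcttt
SNRPB2: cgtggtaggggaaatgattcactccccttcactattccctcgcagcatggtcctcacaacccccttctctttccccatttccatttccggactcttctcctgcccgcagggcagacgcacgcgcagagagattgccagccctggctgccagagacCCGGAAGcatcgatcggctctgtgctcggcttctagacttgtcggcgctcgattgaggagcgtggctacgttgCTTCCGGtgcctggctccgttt

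The SF3B6 stretch holds 3 ETS matches, of which 1 runs into its YY1 match, and a GC box. SNRPB2 holds 2 ETS matches and RBM45 1. HNRNPC holds 3 CCAAT matches, a GC box and a TATA match, HNRNPA2B1 a CCAAT match, and HNRNPD 1 match each of ETS, GC box, E-box and TATA. The matches are descriptions of letters and not of bound factors.

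The genes of the U2 particle included the member with the highest HDAC1 value in replicate 2. SF3B6 (chromosome 2, 24067586 to 24076326), whose product lies at the branch-site adenosine, had HDAC1 at 7.46-fold and 8.13-fold over background in replicates 1 and 2 and H4K12la at 3.22-fold and 3.59-fold. Fold enrichment is the peak caller's value within 1 list, with no scaling between libraries, so ranks are given within each list. Ranked with all genes peaked in the same list, SF3B6 stood at percentiles 95.6 and 98.3 for HDAC1 but 11.9 and 26.7 for H4K12la. Of the other 5 SF3B genes, 2 were called, both for H4K12la. SF3B1, the branch-site protein often mutated in blood cancers, had H4K12la at 2.67-fold and 4.18-fold, and SF3B3 at 4.13-fold and 4.68-fold, with no HDAC1 peak at either gene. H4K12la was thus called at 3 of 6 SF3B genes (50%, Wilson 95% interval 18.8 to 81.2, against 10.5% of all genes). HDAC1 was called at 1 (16.7%, against 8.18%). SF3B5 had H4K12la in replicate 2 alone (4.12-fold), and SF3B2 and SF3B4 had no peak in any library. SF3A2, of the companion complex, had HDAC1 only (4.40-fold and 3.42-fold). No U2AF gene was called, and U2AF2, the reader of the pyrimidine tract, had a lone HDAC1 peak (4.16-fold, replicate 1).

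The core snRNP protein genes included some called for HDAC1 and others called for H4K12la. Among the Sm ring genes, SNRPD2 (5.22-fold and 4.23-fold) and SNRPD3 (5.11-fold and 3.83-fold) had HDAC1 only. SNRPB, another Sm gene, had H4K12la (4.58-fold and 4.04-fold) with an HDAC1 peak in replicate 1 (3.37-fold). The U1 protein gene SNRPA had HDAC1 only (5.82-fold and 4.76-fold), while SNRPB2, which encodes its close relative in the U2 particle, had H4K12la only (4.75-fold and 5.65-fold). HDAC1 was called at 3 of the 12 SNRP genes (25%, against 8.18% of all genes) and H4K12la at 2 (16.7%, against 10.5%). No SNRP gene carried both, against 3.18% of all genes, and 12 genes are too few to read that absence. SNRPE (5.15-fold) and SNRPA1 (5.07-fold) had HDAC1 in replicate 1 alone.

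Of 12 PRPF genes, 4 were called for HDAC1 (33.3%, against 8.18% of all genes) and 3 for H4K12la (25%, against 10.5%). In replicate 1 alone the counts were 4 and 3, and in replicate 2 alone 5 and 6, so the order of the targets differed between replicates. PRPF4, of the U4 and U6 particle, had both targets, HDAC1 at 7.0-fold and 4.81-fold and H4K12la at 3.76-fold and 5.20-fold. PRPF8, the protein at the centre of the spliceosome's catalytic core, had HDAC1 only (5.27-fold and 3.66-fold). PRPF6, which bridges the particles of the tri-snRNP, had HDAC1 near the lower end of its lists (3.26-fold and 3.39-fold) and H4K12la in replicate 2 (3.61-fold). PRPF38B had H4K12la only (4.81-fold and 4.17-fold). LSM genes were near the background for HDAC1, at 1 of 13 (7.69%, against 8.18%), with H4K12la at 2 of 13 (15.4%, against 10.5%). LSM1, of the cytoplasmic mRNA decay ring, had HDAC1 (4.59-fold and 3.44-fold), and LSM5 (4.32-fold and 4.42-fold) and LSM14A (4.21-fold and 3.25-fold) had H4K12la. An HDAC1 peak also lay at LSM5 in replicate 1 (4.51-fold).

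**Figure D1:**
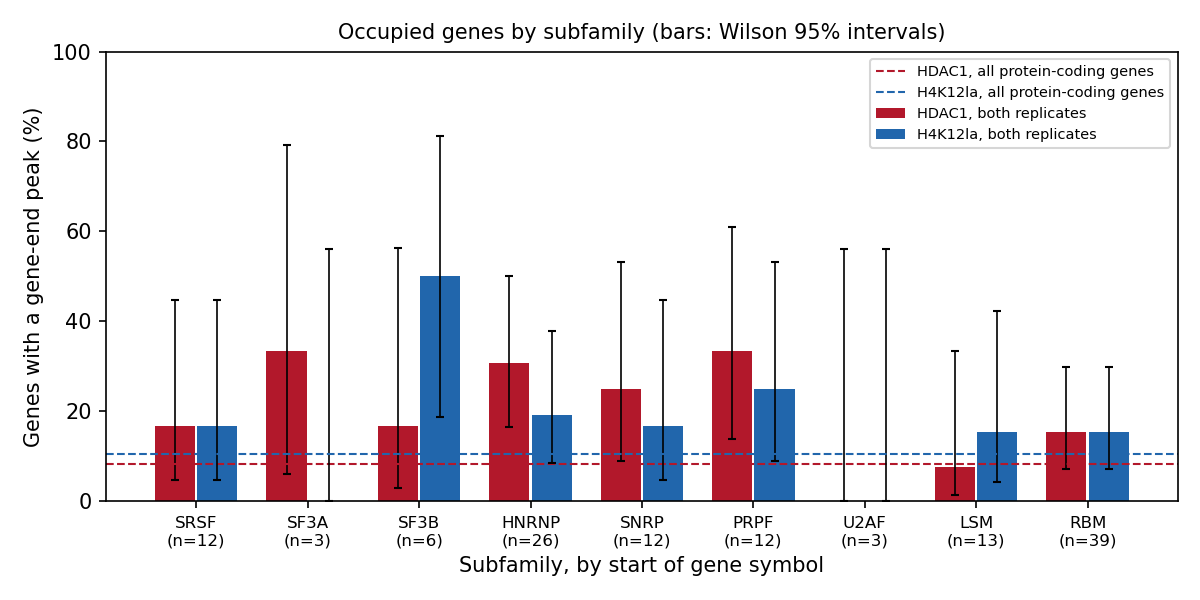
Percentage of genes (y axis) in each subfamily (x axis) with a gene-end peak in both replicates of HDAC1 (red) or H4K12la (blue), with Wilson 95% intervals and dashed lines at the shares of all protein-coding genes, 8.18% and 10.5%. HNRNP and PRPF genes had HDAC1 at 30.8% and 33.3%, SF3B genes had H4K12la at 50%, and the intervals of the subfamilies overlap.

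HNRNP genes carried HDAC1 most often in number, at 8 of 26 (30.8%, 16.5 to 49.99, against 8.18% of all genes). H4K12la was called at 5 (19.2%, 8.51 to 37.9), an interval that holds the 10.5% of all genes. HNRNPD, which binds AU-rich elements and acts in mRNA decay, had the highest HDAC1 value of any member in replicate 1 (8.01-fold, with 7.21-fold in replicate 2), at percentiles 97.8 and 95.7. HNRNPA1 (7.0-fold and 5.13-fold) and HNRNPA2B1 (5.79-fold and 6.19-fold), a pair of related splicing repressors, had HDAC1 only. HNRNPK, a binder of C-rich RNA, followed at 6.03-fold and 5.39-fold. HNRNPUL2 (5.73-fold and 5.17-fold), HNRNPF (5.53-fold and 4.76-fold) and HNRNPR (5.32-fold and 5.16-fold) were of like strength. HNRNPC, which binds uridine tracts, was the only HNRNP gene called for both (HDAC1 5.74-fold and 4.58-fold, H4K12la 3.07-fold and 3.85-fold).

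H4K12la at HNRNP genes was weaker in rank. HNRNPA3 (2.88-fold and 3.29-fold), HNRNPH3 (3.35-fold and 3.40-fold) and HNRNPDL (3.75-fold and 2.95-fold) lay at percentiles 3.81 to 39.4 of their lists. All 3 also had an HDAC1 peak in replicate 1 (5.88-fold, 4.42-fold and 4.28-fold). HNRNPA0 differed, with H4K12la at 3.51-fold and 5.11-fold and an HDAC1 peak of 7.53-fold in replicate 2 (percentile 96.7) and none in replicate 1. So each of the 5 HNRNP genes called for H4K12la had HDAC1 in at least 1 replicate. Over all genes, 942 of the 2077 called for H4K12la had no HDAC1 peak in either replicate. In the other direction, 4 of the 7 HNRNP genes called for HDAC1 only had an H4K12la peak in replicate 2. They were HNRNPD (4.90-fold, percentile 82.7), HNRNPK (4.21-fold), HNRNPR (3.53-fold) and HNRNPF (3.11-fold). Of all 995 genes called for HDAC1 only, 572 had no H4K12la peak in either replicate. With so few HNRNP genes, these counts do not set them apart from other genes. The 12 HNRNP genes without a gene-end peak in any library included HNRNPH1, HNRNPL, HNRNPM, HNRNPU and HNRNPAB. They also included HNRNPCL1, HNRNPCL2, HNRNPCL3 and HNRNPCL4, close copies of each other to which reads can be hard to assign.

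Among the 12 SR protein genes, HDAC1 was called at 2 and H4K12la at 2. That was 16.7% for each target, against 8.18% and 10.5% of all genes. SRSF1 (3.82-fold and 5.16-fold) and SRSF2 (5.23-fold and 3.85-fold) had HDAC1 only, and SRSF8 (4.51-fold and 4.32-fold) and SRSF11 (3.86-fold and 3.57-fold) had H4K12la. SRSF11 also had HDAC1 in replicate 1 (5.01-fold). A peak in at least 1 library was found at 10 of 12 SRSF genes, all but SRSF9 and SRSF12, against 29.1% of all genes. Only 4 of these 10 were called. Among them SRSF3 (4.32-fold) and SRSF7 (3.79-fold) had HDAC1 in replicate 2 alone, and SRSF4, SRSF5 and SRSF10 had H4K12la in replicate 2 alone (3.65-fold, 4.36-fold and 2.90-fold).

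RBM genes held the strongest H4K12la peak of any member. RBM45 (chromosome 2, 178112437 to 178139011) had H4K12la at 6.24-fold and 6.12-fold, percentiles 98.4 and 97.4, and no HDAC1 peak. RBM7, which acts in nuclear RNA surveillance, followed at 4.38-fold and 5.87-fold, and RBM24, known from muscle splicing, at 5.17-fold and 3.94-fold. RBM12 (3.96-fold and 4.92-fold) and RBM48 (3.49-fold and 4.22-fold) were the remaining genes with H4K12la only, RBM48 with HDAC1 in replicate 1 (5.75-fold). RBM39, a splicing factor related to U2AF2, had both targets, HDAC1 at 6.68-fold and 5.45-fold and H4K12la at 3.60-fold and 3.19-fold.

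HDAC1 without H4K12la was called at 5 RBM genes. RBM15, an adaptor of the RNA methylation complex, was the highest at 6.14-fold and 6.25-fold. RBM10, a splicing regulator on the X chromosome, had 4.62-fold and 4.46-fold, and RBM6 3.66-fold and 4.58-fold. RBM14 and the readthrough gene RBM14-RBM4 have the same start and share 1 peak (4.92-fold and 3.79-fold), so they are 1 place counted under 2 names. Out of 39 RBM genes, 6 were called for each target (15.4%, 7.25 to 29.7). This interval holds the shares of all genes, 8.18% for HDAC1 and 10.5% for H4K12la. A peak in at least 1 library was found at 19 RBM genes, against 29.1% of all genes, and 20 had none.

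**Figure D2:**
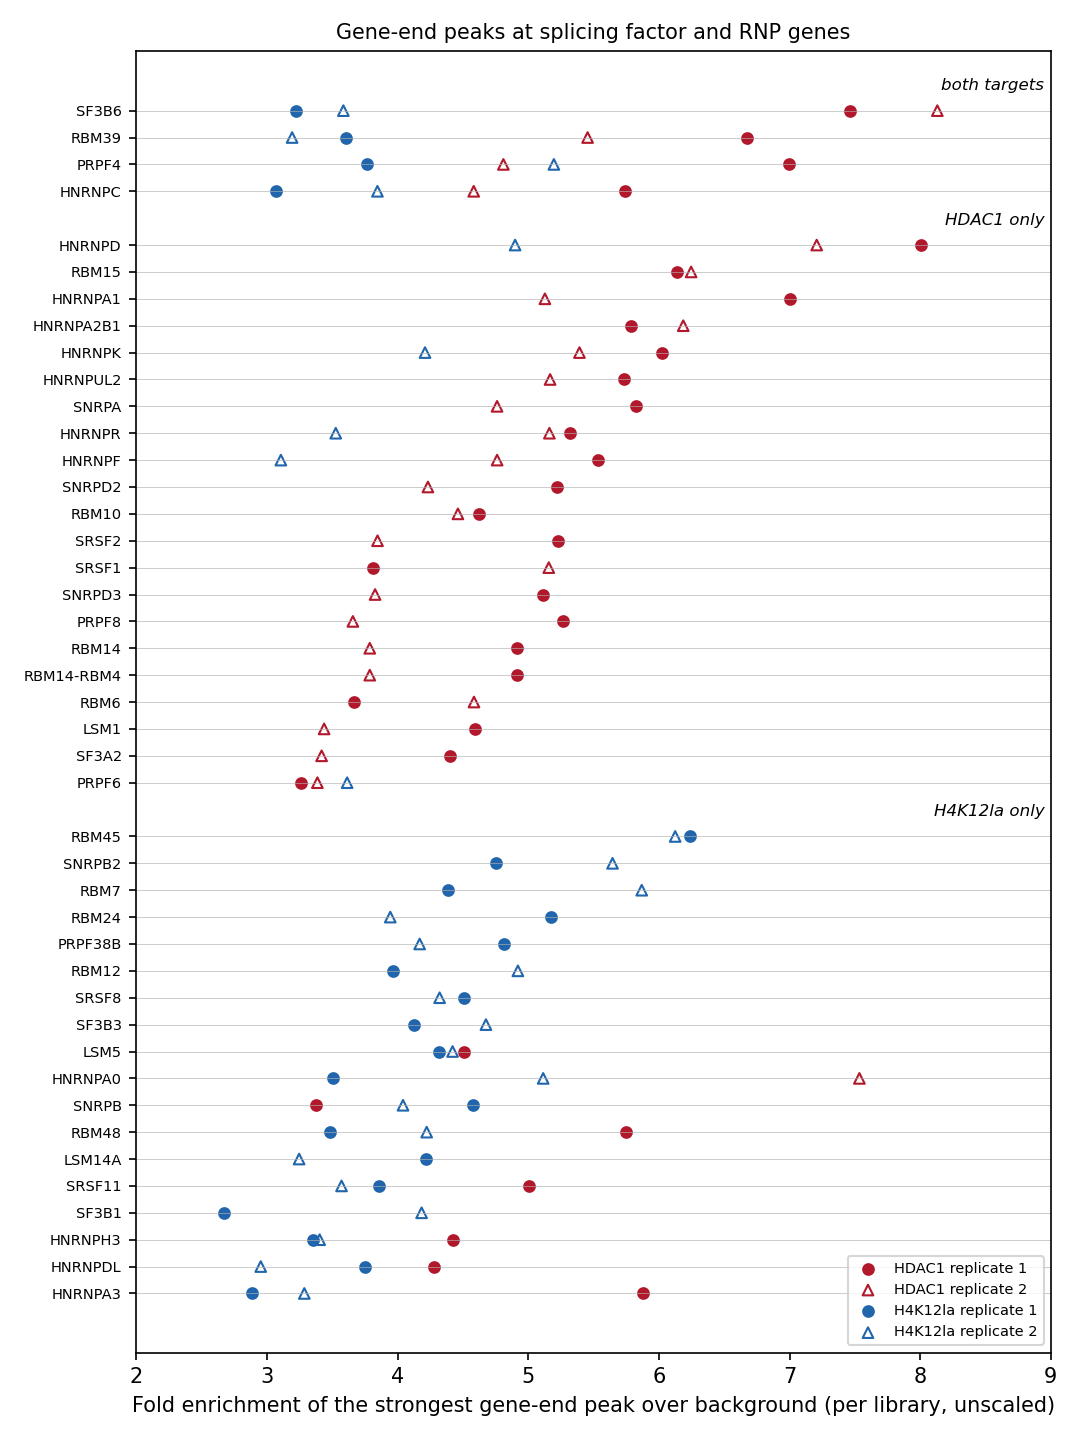
Fold enrichment (x axis) of the strongest gene-end peak at 43 of the 44 members called for HDAC1 or H4K12la (y axis), by class; circles are replicate 1 and triangles replicate 2, red HDAC1 and blue H4K12la. SF3B6 leads its class by HDAC1 fold but not by H4K12la fold, and HNRNPD and RBM45 lead theirs. Outside the class with both targets, 13 members show a peak of the second target in 1 replicate only. Over all genes, 572 of 995 with HDAC1 only and 942 of 1446 with H4K12la only had no peak of the second target.

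Peak strength at the members was like that at other called genes. Over the 26 HDAC1 members the median was 5.43-fold in replicate 1 and 4.76-fold in replicate 2, against 5.19-fold and 4.83-fold over all 1626 called genes. The mean difference was 0.0860 ± 0.220 (SD, n = 2), so it was smaller than the spread between replicates, and its sign differed between them. Over the 23 H4K12la members the medians were 3.86-fold and 4.17-fold, against 3.98-fold and 4.27-fold over 2077 genes. Members were lower by a small margin in both replicates, with a mean difference of -0.110 ± 0.0173 (SD, n = 2). Over the larger set of 42 members with a peak in replicate 2, whether or not replicate 1 had one, the difference was 0.0721. Its sign thus depended on which genes were counted.

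HDAC1 at the members went with a close neighbour gene. Of the 126 members, 50 (39.7%) had an end of another protein-coding gene within 1 kb of one of their own ends, as did 28.5% of all genes. HDAC1 was called at 21 of these 50 members (42.0%), against 14.6% of all genes with such a neighbour. With readthrough genes left out of the members, it was called at 20 of 48 (41.7%). RBM14 and RBM27, which share a start with a readthrough gene, stayed in this group. At the 76 members without a close neighbour HDAC1 was called at 5 (6.58%), against 5.64% of all genes without one. Those 5 were HNRNPD, HNRNPF, HNRNPR, HNRNPC and RBM6. By the call in both replicates, the share of members was therefore near the background where no other gene end was close. In each HDAC1 library alone the share was also higher with a close neighbour, but the members stood above all genes in both groups. HDAC1 replicate 1 had a peak at 52.0% of members with a close neighbour and 18.4% without, and replicate 2 at 44.0% and 13.2%. Over all genes the corresponding shares were 25.6% and 10.5% in replicate 1, and 17.6% and 7.10% in replicate 2.

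H4K12la differed less between these groups. It was called at 11 of 50 members with a close neighbour (22%, against 15.4% of all such genes) and at 12 of 76 without (15.8%, against 8.49%). Its libraries gave no common direction among members: replicate 1 had a peak at 22% with a close neighbour and 25% without, and replicate 2 at 34% and 32.9%. Over all genes both libraries were higher with a close neighbour, at 19.5% and 11.1% in replicate 1, and 27.5% and 16.3% in replicate 2. HDAC1 without H4K12la made up 17 of the 50 and 4 of the 76. Whether these splits differ beyond chance was not tested.

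**Figure D3:**
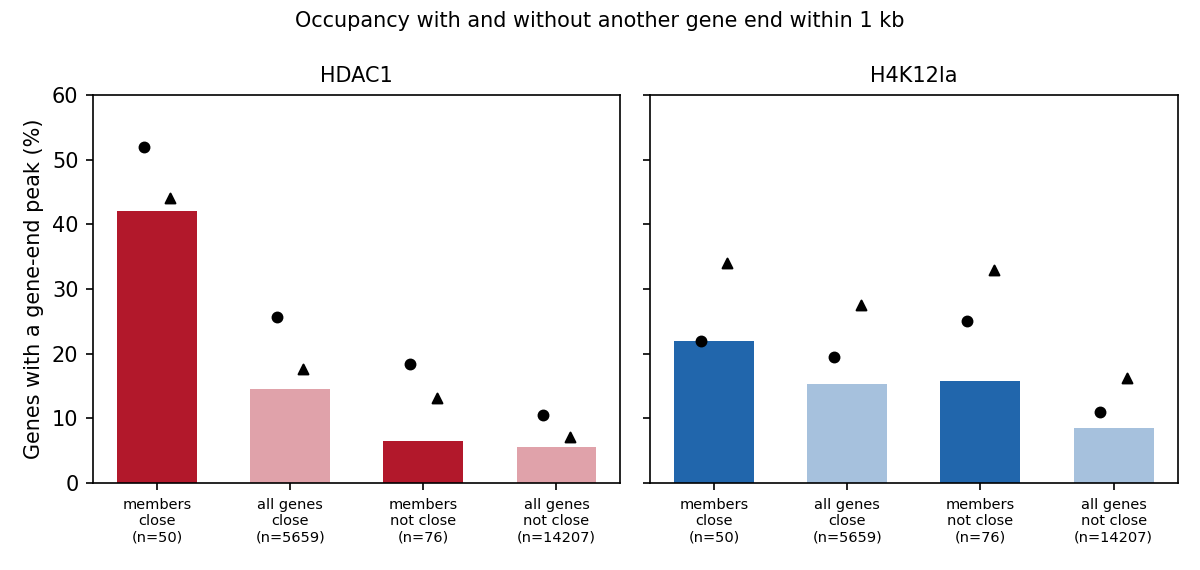
Percentage of genes (y axis) with a gene-end peak of HDAC1 (left) or H4K12la (right), for members and all genes with or without another gene end within 1 kb (x axis); bars count peaks in both replicates, and circles and triangles are replicates 1 and 2 alone. The HDAC1 bar for members with a close neighbour stands at 42.0%, against 14.6% for all such genes.

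Windows of 1 kb around ends that lie within 1 kb of each other overlap. Counts of peaks shared with a neighbour therefore largely restate the split by close neighbour. At 16 of the 21 members with HDAC1 only (76.2%), the peak also lay in the window of another protein-coding gene, against 44.0% of all genes with HDAC1 only. The 16 include RBM14 and the readthrough gene RBM14-RBM4, which share their peak only with each other. For H4K12la only this held for 8 of 18 members (44.4%, against 33.2%), and for both targets for 3 of 5. The heterochromatin protein genes CBX5 and CBX3 share the HDAC1 peaks of HNRNPA1 and HNRNPA2B1. SNRPD2 shares its peak with QPCTL, SNRPD3 with GUCD1, SNRPA with ACTMAP, SF3A2 with PLEKHJ1, HNRNPK with RMI1 and RBM10 with NDUFB11, a complex I gene. At these 6, and at HNRNPA2B1, both starts lie within 1 kb on opposite strands (244 to 726 bases apart). Such peaks cannot be given to 1 gene of the pair. Among the 110 members with a start in the RefSeq promoter table, 17 had a start on the other strand within 1 kb, running apart from their own. HDAC1 was called at 8 of them (47.1%, against 21.3% of all such genes) and H4K12la at 4 (23.5%, against 23.9%). Without such a start HDAC1 was called at 13 of 93 (14.0%, against 7.34%) and H4K12la at 14 (15.1%, against 9.7%).

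The peaks lay at gene starts. Of the members over 4 kb long with a known strand, 21 were called for HDAC1 and 18 for H4K12la, and in every library each had a peak at the start. Over all genes 95.4% to 98.4% did. The outer annotated start of LSM5 lies 4903 bases, and that of SRSF11 15684 bases, upstream of the start in the promoter table. The peaks called at LSM5 and SRSF11 also lay in the windows of their neighbours AVL9 and LRRC40. Within 1 kb of the table's start, replicate 2 had a further H4K12la peak at LSM5 (3.77-fold) and at SRSF11 (4.28-fold).

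Within the start region the targets took different positions. HDAC1 summits lay upstream of the start, at a median of -174 bases (quartiles -304 and -61) in replicate 1 and -186 bases (-296 and -134) in replicate 2, over 21 members. Only 4 and 2 of them lay downstream, and the 4 include RBM14 and RBM14-RBM4, which share 1 summit. H4K12la summits spread to both sides, with medians of 73.5 bases (-357 and 233, 16 members) and 28.0 bases (-243 and 146, 18 members) and 9 and 10 of them downstream. The same order held over all called genes, with medians of -142 and -139 for HDAC1 and 75 and 54.5 for H4K12la. Downstream HDAC1 summits were 19.0% and 9.52% at members, against 37.4% and 32.7% over all genes. At SNRPA the HDAC1 summit was 170 bases upstream in both replicates. At RBM45 the H4K12la summits lay 166 and 159 bases downstream, and at SNRPB2 33 bases downstream in both, so outside the stretches printed above.

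**Figure D4:**
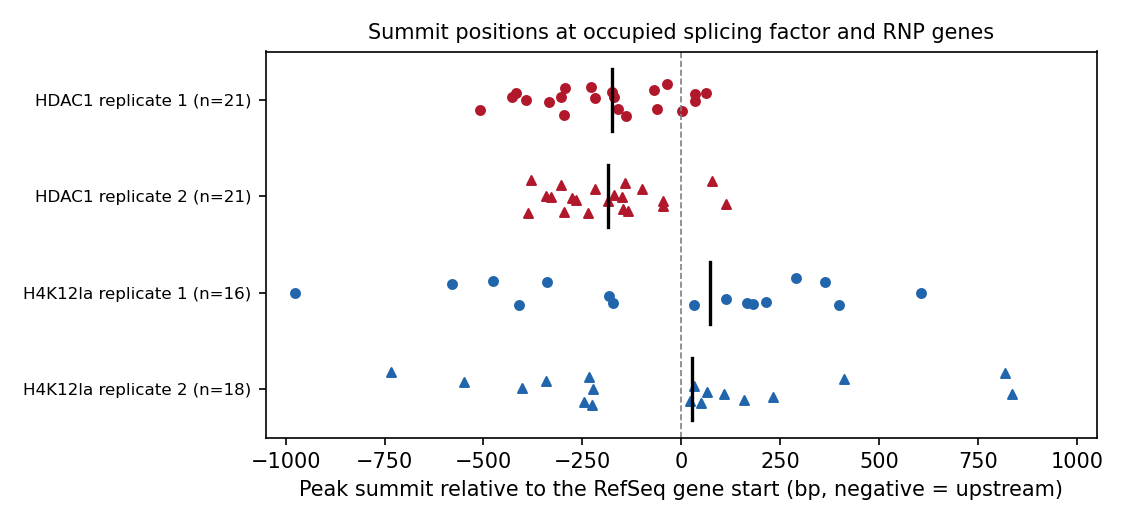
Position of the peak summit (x axis, bases from the RefSeq start, negative upstream) at members called for HDAC1 (red) or H4K12la (blue) in each library (y axis); each point is 1 member and black lines are medians. HDAC1 medians lie at -174 and -186 bases and H4K12la medians at 73.5 and 28.0 bases.

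At SF3B6, PRPF4, HNRNPC and RBM39, which carried both targets, the HDAC1 and H4K12la peaks overlapped. They shared 325 to 577 bases in replicate 1 and 456 to 700 bases in replicate 2. The summits were 2 to 592 bases apart in replicate 1 and 1 to 246 in replicate 2. At SF3B6 the gap was 592 bases in replicate 1 and 108 in replicate 2, so summit gaps were not stable between replicates. Over all 631 genes with both targets the peaks overlapped in 94.0% and 94.8% of cases. Replicate peaks of the same target overlapped at every called member, with a median summit gap of 170 bases for H4K12la and 102 for HDAC1. Median peak width at the members' starts was 644 and 481 bases for HDAC1 and 621 and 754 for H4K12la.

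The members' promoters were rich in CpG. In the 300 bases around the start, observed over expected CpG had a median of 0.921 over 110 members, against 0.763 over 15842 genes, at nearly the same G+C content (61.7% and 62.7%). With a ratio of at least 0.6 and at least 50% G+C, a rule chosen after the data were seen, 98 members (89.1%) and 63.4% of all genes counted as CpG-rich. Among these, HDAC1 was called at 19 members (19.4%, against 11.8% of CpG-rich genes) and H4K12la at 16 (16.3%, against 15.1%). The H4K12la share of the members was thus near that of other genes with CpG-rich promoters, while the HDAC1 share stayed above it. The part of promoter CpG in these shares was not tested further.

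Short motifs in the same 300 bases were counted on both strands. CCAAT was found at 12 of 18 members with HDAC1 only (66.7%), at 6 of 15 with H4K12la only (40%) and at 47.3% of the 74 members with neither. Over all genes the shares were 51.7% with HDAC1 only, 33.9% with H4K12la only and 36.4% of all promoters. The ETS match was of like frequency in these classes of members, 5 of 18, 5 of 15 and 27.0% of those with neither, and at 28.2% of members against 14.2% of all promoters. The NRF1 match was found at 6.36% of members and 4.26% of all promoters. The YY1 match was found at 12.7% of members and 6.40% of all promoters. The GC box was found at 61.8% and 58.5%, the E-box at 10% and 8.88%, the CRE at 2.73% and 2.59%, and the TATA match at 7.27% and 9.63%. The CCAAT share was highest with HDAC1 only among members and all genes alike. Other motifs differed by class too. The GC box was at 12 of 18 members with HDAC1 only, 6 of 15 with H4K12la only and 3 of 3 with both. Over all genes it was at 74.5%, 65.7% and 70.2%. With HDAC1 only and H4K12la only, YY1 was at 0 of 18 and 1 of 15 members, and the E-box at 2 of 18 and 4 of 15. With so few members these shares are descriptions.

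A few members had peaks just outside the windows. Between 1 and 2 kb from a gene end, HNRNPL had HDAC1 at 7.13-fold and 6.06-fold, HNRNPUL1 had HDAC1 at 5.16-fold and 3.90-fold, and PRPF40B had H4K12la at 4.38-fold and 4.43-fold. All 3 lie inside the gene. Inside the windows, the H4K12la summits of replicate 2 lay far downstream of the start at HNRNPH3 (836 bases) and SRSF8 (818 bases). Further inside their genes, HNRNPH1 (4.56-fold and 4.76-fold) and RBM26 (4.17-fold and 4.28-fold) had H4K12la in both replicates.

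A further 90 splicing genes outside the symbol rule were scored in the same way. HDAC1 was called at 11 (12.2%) and H4K12la at 14 (15.6%), with 3 carrying both and none carrying ENO1. The HDAC1 share of these genes was thus nearer the 8.18% of all genes than that of the members. Ranked by the lower fold of both replicates, the leading HDAC1 genes were CASC3, of the exon junction complex (7.96-fold and 6.21-fold), DDX42, a helicase of the U2 particle (7.66-fold and 5.42-fold), and TXNL4A, of the U5 particle (5.31-fold and 4.74-fold). By the same ranking the leading H4K12la genes were TIAL1, an RNA-binding regulator (5.62-fold and 5.65-fold), STRAP, of the SMN complex (4.71-fold and 5.03-fold), and TARDBP, an RNA-binding regulator (4.69-fold and 4.51-fold). In 1 replicate, other genes exceeded some of these: TIAL1 had HDAC1 at 7.13-fold in replicate 1, above TXNL4A, and CWC27 had H4K12la at 5.78-fold in replicate 2, above all 3 named. Of 16 liver genes scored for the cell type, H4K12la was called at 2 (12.5%, against 10.5% of all genes), the liver transcription factors FOXA1 and HNF4A, and HDAC1 at 0. These shares are near or below the background and do not check the cell type. ALB, APOA1 and AFP were among the 12 without a peak in any library.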

How the data were processed

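CUT&Tag peak lists for ENO1, H4K12la and HDAC1 in HepG2 cells, 2 replicates each, were grouped by the labels' titles. Per the submitters' processing notes, FastQC, Bowtie2, MACS2 and deepTools were used with build hg38; versions, settings and use of a control are not given in these sources. Each of the deposited lists was called on 1 library. The authors' fold enrichment is a ratio over background within a library, the deposited -log10 p and q values rank peaks, and the deposited score is the whole part of 10 times -log10 q, within 1. The lists hold 1189 to 7568 peaks on the 24 chromosomes, with a lowest -log10 q just above 2; read depth is unknown, and intervals cover counting error only.

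Genes, strands and starts came from RefSeq GRCh38.p14. Entries on alternate sequences (718, of which 171 protein-coding) were left out. A peak sharing 1 bp with a window of 1 kb on each side of a gene end counted, and the strongest gave the fold. The start was known for 110 of 126 members. Results are counts and medians without tests, since 2 libraries a target cannot reach a p of 0.05 by permutation. Python 3.11.15, pandas 2.3.3 and SciPy 1.17.1 were used. On simulated data, 40 of 40 planted members were recovered, and 0 of 3000 peaks placed away from gene ends were assigned. Named members were those called in both replicates, of which 1 is not reported here; members seen in 1 replicate, just outside the windows or without peaks were named after their values were seen. Members and lists were chosen with earlier results of these data known; the close-neighbour, divergent-start, CpG and motif descriptions were added after the data were seen.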

Additional observations from a re-analysis of the deposited data

How the results depend on the processing

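Without replicate 1 or replicate 2 (the other list alone), the counts ranged from 32 to 40 members for HDAC1, 30 to 42 for H4K12la, 14 in both cases for both targets, 18 to 26 for HDAC1 only and 16 to 28 for H4K12la only; the difference in median fold between members and all called genes ranged from 0.00268 to 0.404 for HDAC1 and from -0.0862 to 0.0721 for H4K12la. Both targets lay at 11.1% of members in each case, against 5.89% of all genes without replicate 1 and 6.02% without replicate 2. In the same order, HDAC1 only was at 14.3% and 20.6%, against 4.20% and 8.82%. H4K12la only was at 22.2% and 12.7%, against 13.6% and 7.44%. A peak in either replicate gave 46, 49 and 23 members for HDAC1, H4K12la and both. Those were 36.5%, 38.9% and 18.3%, against 16.8%, 22.5% and 10.2% of all genes. At -log10 q of 5 or more H4K12la fell to 14 members (11.1%, against 6.11% of all genes) and both to 2 (1.59%, against 1.61%). By gene starts only, over fewer genes, both fell to 3 of 110 members (2.73%, against 3.27% of all genes with a known start). Leaving out genes whose peak lies in another gene's window gave 7 members with HDAC1, 12 with H4K12la, 2 with both, 5 with HDAC1 only and 10 with H4K12la only, of 99. For HDAC1 that was 7.07%, against 4.74% of all genes treated alike. This setting removes called genes only, so its counts and shares could only fall. It cannot show how the shares depend on shared peaks. Without a close neighbour, chosen after seeing the data, the counts in the same order were 5, 12, 1, 4 and 11 of 76. With CpG-rich promoters, also chosen afterwards, both fell to 2 of 98 (2.04%, against 4.58% of all CpG-rich genes). The H4K12la difference in median fold was -0.145 within 500 bp, -0.0541 within 2 kb, -0.130 at -log10 q of 5 and -0.188 with equal numbers of peaks (4567 a library). The other counts under these settings, and all under summit, half-peak and readthrough settings, stayed within 1.5 times their values; the ENO1 count was 0 in all. The causes were not tested. No paired analysis was possible because the results come from no test. Unknown depth limits every absent peak.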
